A study of Homo sapiens with 9 samples.

Results

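NF-kB signalling genes were followed in HT1080 cells, an established human fibrosarcoma line, growing on top of a thick collagen gel. The 10 genes were chosen for their place in the pathway, with earlier results of these data known. Of these, 9 were named by a probe set of their own, out of 19775 genes that were. They were the feedback inhibitors NFKBIA, NFKBIE, NFKBIZ and TNFAIP3, the kinase gene MAP3K14, and the subunit genes NFKB1, NFKB2, RELB and REL. No probe set was annotated to BIRC3 in the platform table used here, so it was not analysed. Protease inhibitors were added to the cells as a mix, 24 h or 4 h before harvest, or the cells were untreated, with 3 arrays in each group. The mix held GM6001, an inhibitor of matrix metalloproteinases, at 100 µM, pepstatin A (aspartic proteases) at 50 µM, E64 (cysteine proteases) at 250 µM, and aprotinin and leupeptin (serine and cysteine proteases) at 2 µM each. It was given as a whole, so no single compound was tested. All groups shared the gel (collagen at 1.7 mg/ml), medium with 10% serum and 24 h of adhesion before treatment. The untreated arrays carry the word vehicle in their titles, and neither the vehicle nor their time of harvest is given in the sources used here. Some labels call the mix a kinase inhibitor, whereas the compounds listed in the treatment protocol inhibit proteases.

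NF-kB is a family of dimeric transcription factors that are held in the cytoplasm of resting cells by inhibitor proteins of the IkB family. Cytokines, microbial products and cell stress activate kinases that mark the inhibitor for destruction by the proteasome, which frees the dimer to enter the nucleus. Among the genes it switches on are those of its own inhibitors, so that the response limits itself, and those of several of its own subunits. A slower, non-canonical branch runs through the kinase NIK, the product of MAP3K14, and yields dimers of RELB with the processed product of NFKB2. In many tumour cells the pathway is known for driving inflammatory cytokines and survival genes.

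Promoter sequence is shown for 3 members that were higher after 4 h (NFKBIA, TNFAIP3 and MAP3K14) and for NFKB1, whose arrays stood in the same order as those of NFKBIA and MAP3K14. Each stretch is the 250 bases before the annotated start, 5′ to 3′ on the gene's strand, from RefSeq on GRCh38.p14. Capitals mark matches to the 10-base kB consensus, the DNA element that NF-kB dimers are known to bind, on either strand.
NFKBIA, chr14:35404750-35404999, minus strand: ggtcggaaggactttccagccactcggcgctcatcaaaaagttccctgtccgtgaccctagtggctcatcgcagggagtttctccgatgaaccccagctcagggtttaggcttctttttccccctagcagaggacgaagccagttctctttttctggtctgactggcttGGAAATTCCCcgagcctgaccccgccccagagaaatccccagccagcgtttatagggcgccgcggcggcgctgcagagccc
TNFAIP3, chr6:137867009-137867258, plus strand: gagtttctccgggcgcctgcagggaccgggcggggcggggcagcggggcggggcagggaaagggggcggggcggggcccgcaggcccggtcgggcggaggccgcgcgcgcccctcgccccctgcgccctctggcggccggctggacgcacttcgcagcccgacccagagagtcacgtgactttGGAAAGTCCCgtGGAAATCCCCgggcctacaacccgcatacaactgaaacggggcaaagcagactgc
MAP3K14, chr17:45317021-45317270, minus strand: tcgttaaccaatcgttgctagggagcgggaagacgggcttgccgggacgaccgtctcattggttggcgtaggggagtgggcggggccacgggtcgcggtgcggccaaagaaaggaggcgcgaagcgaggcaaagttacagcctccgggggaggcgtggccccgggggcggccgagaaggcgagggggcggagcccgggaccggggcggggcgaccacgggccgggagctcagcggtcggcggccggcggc
NFKB1, chr4:102501109-102501358, plus strand: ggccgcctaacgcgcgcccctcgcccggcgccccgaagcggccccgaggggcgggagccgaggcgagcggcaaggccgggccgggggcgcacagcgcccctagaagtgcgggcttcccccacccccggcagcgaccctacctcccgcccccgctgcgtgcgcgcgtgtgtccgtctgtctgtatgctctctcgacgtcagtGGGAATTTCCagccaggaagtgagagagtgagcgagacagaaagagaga
NFKBIA had 1 match, between 81 and 72 bases before its start. TNFAIP3 had 2, at 67 to 58 and at 55 to 46 bases before its start, separated by a pair of bases. NFKB1 had 1 at 49 to 40 bases before its first listed start and none before its other one. MAP3K14 had none in this window. Over the 8 members with an entry, which include BIRC3 and leave out NFKBIE and RELB, 7 had the consensus before at least 1 of their starts, in 9 of 12 windows, against 5.21% of all 35116 windows in the table. These are matches of letters in a fixed window, and binding was not measured.

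**Figure D1:**
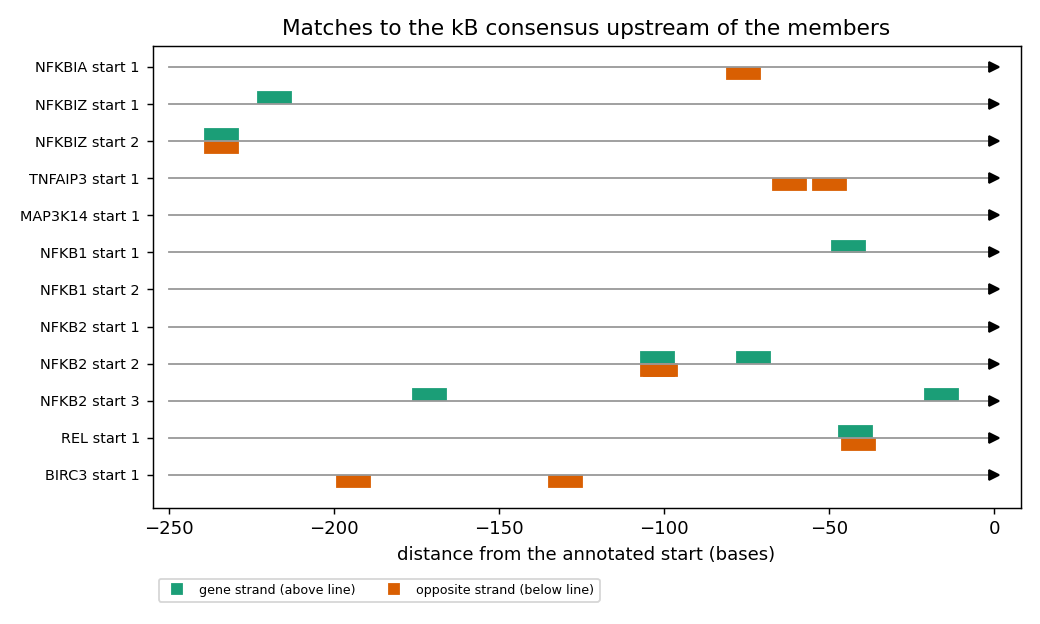
Position of matches to the kB consensus in the 250 bases before each annotated start of the member genes (horizontal axis, bases from the start, arrowhead at the start). Boxes above the line are on the gene's strand and boxes below it on the opposite strand. 9 of the 12 windows hold a match, and that of MAP3K14 holds none.

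Values below are deposited linear intensities, whose trimmed mean was the same on every array, and folds are on the scale log2(intensity + 16), which understates the change of dim genes. A gene is represented by its probe set with the highest mean. Calls are from limma at an adjusted p (Benjamini-Hochberg over all genes) below 0.05. Several measures moved with the groups. The poly-A spike transcripts, bacterial RNAs added during preparation, had a mean log2 value of 10.52 to 10.55 at 24 h, 9.91 to 10.34 at 4 h and 9.09 to 9.22 on untreated arrays (exact two-sided permutation p = 0.1 for each treated group against untreated, the smallest that 3 against 3 arrays allow). The 5′ signal of ACTB divided by its 3′ signal, which drops when RNA is degraded, was 0.654 to 0.727 at 24 h, 0.615 to 0.871 at 4 h and 0.855 to 0.922 untreated. On the first principal component replicate 2 of the 4 h group lay at -13.3, apart from the other 4 h arrays at 8.56 and 15.7 and nearer to the untreated arrays at -23.4 to -18.2, so the 4 h changes and the calls are also given without it. All 6 mesenchymal markers had a mean over the 9 arrays of at least 16, led by VIM and CD44. The dimmest, THY1, averaged 10.5 at 24 h, 26.2 at 4 h and 24.8 untreated. Of the leukocyte markers 7 of 9 measured had a mean under 16, among them PTPRC and CD14, with summed intensities of 98.8 to 141.9 at 24 h, 75.8 to 137 at 4 h and 103.9 to 151 untreated. Of the endothelial markers 4 of 6 did, among them VWF and CDH5, with sums of 88.3 to 134 at 24 h, 80.1 to 128 at 4 h and 49.8 to 62.4 untreated. Of the epithelial markers 6 of 8 were under 16, among them CDH1 and EPCAM, while the keratin genes KRT8 and KRT18 were bright in all groups. The part of these measures in the results was not tested.

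The first question was which of the pathway's genes differ from untreated cells after 4 h and after 24 h of protease inhibition. After 4 h, NFKBIA, TNFAIP3, MAP3K14 and NFKBIE rose, by 2.37-fold, 2.25-fold, 2.16-fold and 1.79-fold. That is 4 of 9 members higher and none lower, against 0.238% of all genes called higher and 0.0152% called lower. After 24 h, NFKBIA was higher than in untreated cells by 1.65-fold. That is 1 of 9 members higher and none lower, against 0.217% of all genes called higher and 0.253% called lower. At an unadjusted p under 0.05 there were 7 of 9 members at 4 h, 5 of 9 at 24 h and 7 of 9 between the time points, against 12.3%, 15.8% and 11.4% of all genes. Because the members were chosen with earlier results of these data known, their shares here and below are descriptive. They do not test a set picked beforehand. The 5 members not called at 4 h were NFKB1, RELB, NFKBIZ, NFKB2 and REL. The median log2 change of the 9 members was 0.84 at 4 h and 0.37 at 24 h, beside 0.01 for all genes in both comparisons. In extracts of whole cultures, a change in the share of cells that express a gene cannot be told apart from a change in the RNA per cell.

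**Figure D2:**
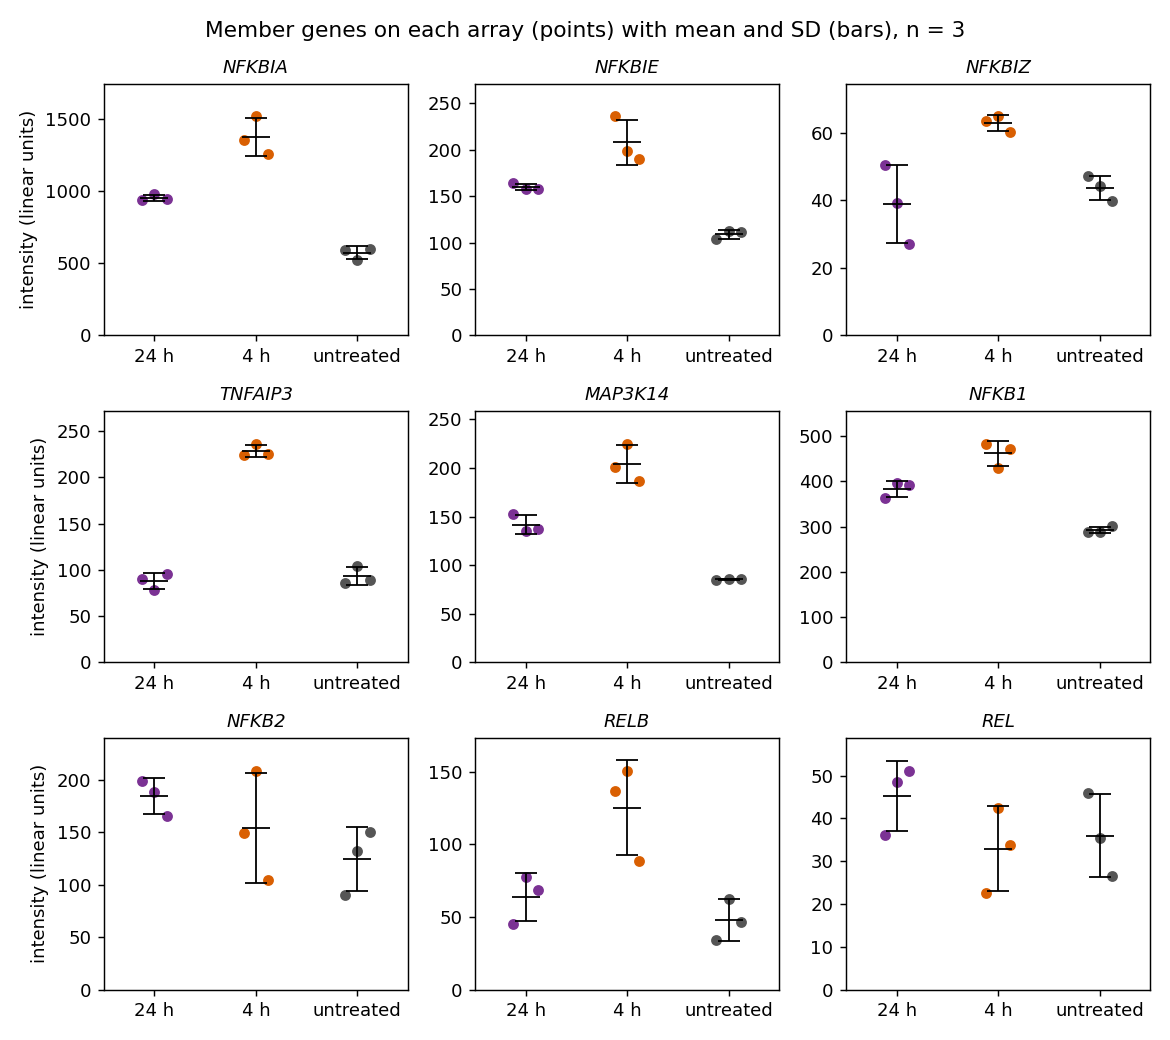
Linear intensity of each member gene on every array (points) at 24 h, at 4 h and in untreated cells, with the mean and SD of 3 arrays (bars); each panel starts at 0. The 4 h arrays lie above all others in 7 panels, and in TNFAIP3 the 24 h and untreated arrays overlap. Over all genes, every 4 h array was above every untreated array in 9.36%, and above every 24 h array in 7.86%. The share of genes with both was not counted.

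NFKBIA encodes IkB-alpha, the inhibitor that is degraded and remade in each round of signalling. It measured 939, 979 and 943 at 24 h, 1351, 1517 and 1257 at 4 h, and 594.5, 519 and 601 in untreated cells. No arrays of any pair of groups overlapped, and the 4 h arrays were highest. The log2 change was 1.24 ± 0.12 (SE) at 4 h (limma adjusted p = 0.00789) and 0.73 ± 0.12 at 24 h (adjusted p = 0.0448), each against the same untreated arrays. The difference of 24 h from 4 h, -0.52 ± 0.12, did not pass (adjusted p = 0.143). Without replicate 2 of the 4 h group the 4 h change was 1.17 (adjusted p = 0.0376), and that of 24 h from 4 h was -0.44 (adjusted p = 0.265).

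NFKBIE encodes IkB-epsilon, a second inhibitor of the same family. Its intensities were 164, 158 and 157.5 at 24 h, 236, 199 and 190 at 4 h, and 103, 112 and 111 untreated, again with no overlap between groups. The log2 change was 0.84 ± 0.12 at 4 h (limma adjusted p = 0.0373). It was 0.49 ± 0.12 at 24 h, which did not pass (adjusted p = 0.0893). Without replicate 2 of the 4 h group the change at 4 h was 0.87 and the call was lost (adjusted p = 0.0503).

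TNFAIP3 encodes A20, an enzyme that edits ubiquitin chains and shuts off signalling from the receptors. It measured 90.6, 78.2 and 95.1 at 24 h, 224, 236.5 and 225 at 4 h, and 85.8, 104 and 89.6 in untreated cells. The 4 h arrays stood well above the other 6, which overlapped. The log2 change was 1.17 ± 0.12 at 4 h (limma adjusted p = 0.00952) and -0.07 at 24 h, with a 95% interval of -0.34 to 0.20. Under the settings above, TNFAIP3 was the only 1 of the 9 members called between the time points. It was lower at 24 h than at 4 h by a log2 change of -1.24 ± 0.12 (adjusted p = 0.00662). Of all genes, 0.116% were called lower there and 0.0253% higher. Without replicate 2 of the 4 h group these changes were 1.14 at 4 h against untreated (adjusted p = 0.0493) and -1.22 at 24 h against 4 h (adjusted p = 0.0432).

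NFKBIZ encodes IkB-zeta, an atypical, nuclear member of the inhibitor family that acts on a subset of target genes. It was dim, at 50.5, 39.1 and 27.2 at 24 h, 63.6, 64.9 and 60.4 at 4 h, and 47.1, 44.2 and 39.8 untreated. The 4 h arrays lay above all others, and the 24 h arrays overlapped the untreated ones. Neither the change at 4 h (log2 0.40, 95% interval 0.05 to 0.76, adjusted p = 0.343) nor that at 24 h (-0.14, interval -0.49 to 0.21, adjusted p = 0.733) passed limma's threshold. Without replicate 2 of the 4 h group the 4 h change was 0.39 (adjusted p = 0.374).

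MAP3K14 encodes NIK, the kinase that starts the non-canonical branch. It measured 153, 135 and 137.5 at 24 h, 201, 225 and 186.5 at 4 h, and 85.2, 85.8 and 86.2 untreated, where the 3 arrays were closely alike. No groups overlapped. The log2 change at 4 h was 1.11 ± 0.11 (limma adjusted p = 0.00952), and 1.04 without replicate 2 of that group (adjusted p = 0.0441). At 24 h it was 0.63 ± 0.11, just outside the threshold (adjusted p = 0.0502). It fell inside it without that same 4 h array (adjusted p = 0.0387), which enters this comparison through the shared estimate of the spread alone.

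Of the 4 subunit genes measured, none passed limma's test in any comparison. NFKB1 encodes p105, which is processed to the DNA-binding subunit p50. It measured 364, 396 and 391 at 24 h, 483, 430 and 472 at 4 h, and 288, 289 and 300.4 untreated, with no overlap between any groups. Its log2 change was 0.63 ± 0.11 at 4 h (adjusted p = 0.0555) and 0.37 ± 0.11 at 24 h (adjusted p = 0.133). When replicate 2 of the 4 h group was left out, the 4 h change was 0.68 for NFKB1 and 1.01 for RELB, neither called (adjusted p = 0.0605 and 0.13). Other settings did call them at 4 h, NFKB1 in 5 of 18 alternatives and RELB in 3 of 18, and called NFKB1 at 24 h in 2 of 18.

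RELB encodes the partner of processed NFKB2 in the non-canonical dimer. Its intensities were 45.4, 77.6 and 68.6 at 24 h, 137, 151 and 88.8 at 4 h, and 33.9, 62.6 and 46.9 untreated. The 4 h arrays lay above all others but were spread widely. The log2 change at 4 h was 1.14 ± 0.24, beside 1.17 ± 0.12 for TNFAIP3, and it did not pass (adjusted p = 0.106). At 24 h it was 0.33 (95% interval -0.21 to 0.86, adjusted p = 0.563).

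NFKB2 encodes p100, both a precursor of the subunit p52 and an inhibitor. It measured 199, 189 and 165 at 24 h, 149, 209 and 104.5 at 4 h, and 90.7, 133 and 151 untreated. The 4 h arrays overlapped both other groups, while the 24 h arrays lay above the untreated ones. The log2 change was 0.25 at 4 h (95% interval -0.28 to 0.78, adjusted p = 0.73) and 0.53 at 24 h (interval 0.003 to 1.06, adjusted p = 0.314). The 4 h value rested largely on replicate 2, without which it was 0.03 (adjusted p = 0.974). REL, which encodes c-Rel, a subunit best known from lymphocytes, measured 36, 48.5 and 51.1 at 24 h, 22.5, 42.3 and 33.8 at 4 h, and 46, 35.4 and 26.5 untreated. All its groups overlapped, with log2 changes of -0.09 at 4 h (interval -0.53 to 0.35) and 0.24 at 24 h (interval -0.20 to 0.68). With replicate 2 of the 4 h group left out, the 4 h change of REL was -0.23 (adjusted p = 0.664).

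**Figure D3:**
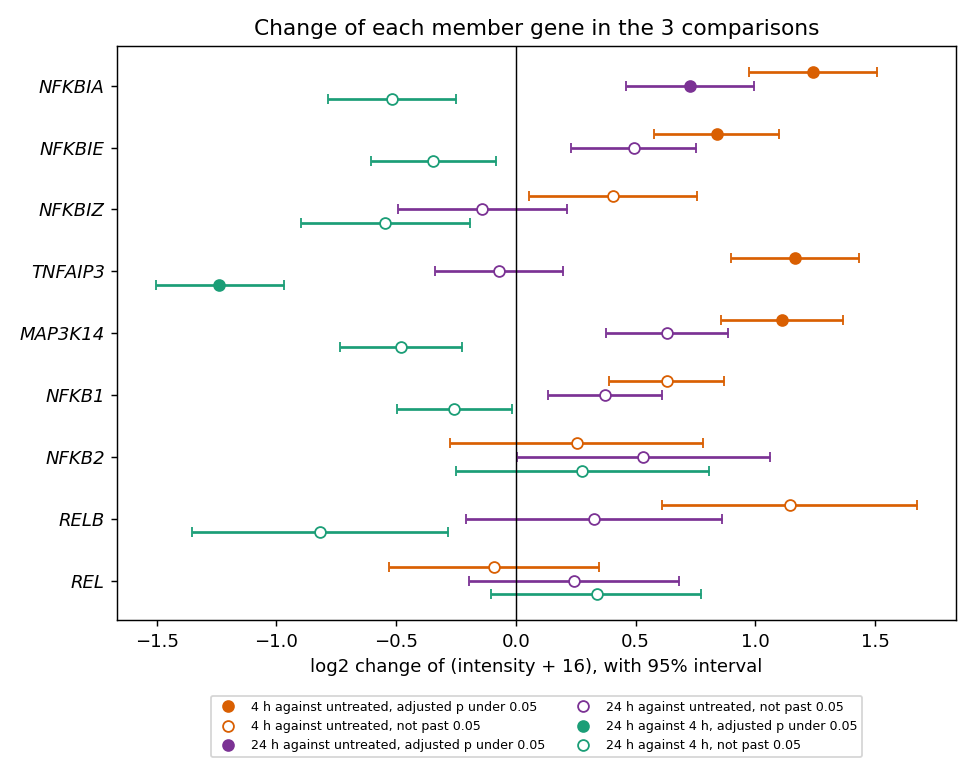
Log2 change of (intensity + 16) of each member gene with its 95% interval (horizontal axis) in the 3 comparisons; filled points passed an adjusted p of 0.05. At 4 h NFKBIA, NFKBIE, TNFAIP3 and MAP3K14 passed, at 24 h NFKBIA, and between 24 h and 4 h TNFAIP3.

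The members also differed in how they stood at 24 h. In NFKBIA, NFKBIE, MAP3K14 and NFKB1 every 4 h array was above every 24 h array, and every 24 h array above every untreated one. That order held for 4 of 9 members and for 0.349% of all genes. Between 4 h and untreated cells the arrays did not overlap, with 4 h higher, in 7 of 9 members, all but NFKB2 and REL, against 9.36% of all genes. Between 24 h and untreated cells 5 of 9 did not overlap with 24 h higher (NFKBIA, NFKBIE, MAP3K14, NFKB1 and NFKB2), against 12.8%. Between 24 h and 4 h 7 of 9 did not overlap, with 24 h lower, against 7.86%.

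The calls were also made with each array left out in turn. With 1 array left out, the log2 changes at 4 h were 1.17 to 1.30 for NFKBIA, 1.12 to 1.24 for TNFAIP3, 1.04 to 1.17 for MAP3K14 and 0.75 to 0.90 for NFKBIE. The count of called members was 3 without replicate 2 of the 4 h group, 2 without its replicate 3, 0 without its replicate 1 or without untreated replicate 3, and 1 without untreated replicate 2. Over all 19775 genes, 50 were called with all arrays, and 9, 6, 3, 2 and 4 in these fits, in the same order. At an unadjusted p under 0.05 these fits had 6 or 7 of 9 members, beside 1796 to 2980 of all genes. When only the 4 h and untreated arrays entered the model, limma called 0 of 9 (7 at an unadjusted p under 0.05, beside 11.5% of all genes in that fit), with an adjusted p of 0.0752 for NFKBIA, TNFAIP3 and MAP3K14. At 24 h the call of NFKBIA was lost without any 1 of the 24 h or untreated arrays, or without replicate 1 of the 4 h group (adjusted p up to 0.184). Over the 18 alternatives the 4 h call was lost in 5 for NFKBIA and for MAP3K14, in 6 for TNFAIP3 and in 13 for NFKBIE. The 24 h call of NFKBIA was lost in 10, the difference of TNFAIP3 between the time points in 2, and MAP3K14 was called at 24 h in 7. NFKBIE was called at 24 h in 3. Between the time points NFKBIA was called in 2 and MAP3K14 in 1.

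Several members had more than 1 probe set, and their changes differed in some. Across the 9 members 18 probe sets were fitted in a model over all 54613 probe sets, 4 genes having 1 and 5 having several. In that model 201502_s_at of NFKBIA, 202644_s_at of TNFAIP3 and 205192_at of MAP3K14 rose at 4 h (limma adjusted p = 0.0243, 0.0333 and 0.0333), 3 of 18, where 0.0128% of all probe sets were called. No member probe set was called at 24 h (0.0531% of all probe sets were), and 202644_s_at fell between 4 h and 24 h (adjusted p = 0.0182, 0.0256% called). At an unadjusted p under 0.05 there were 12 of 18 member probe sets at 4 h, 7 at 24 h and 9 between the time points, against 11%, 13.4% and 9.5% of all probe sets. The other probe set of TNFAIP3, 202643_s_at, measured 51.4 ± 7.8 at 24 h, 112 ± 15 at 4 h and 45.1 ± 6.8 untreated (SD, n = 3 each), a log2 change of 1.06 ± 0.15 at 4 h that did not pass (adjusted p = 0.0802). Its 4 h arrays also lay above all others.

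The 5 probe sets of REL differed in sign at 4 h. The probe set that represents it, 235242_at, had a log2 change of -0.09 at 4 h, while the other 4 were above 0, from 0.28 to 0.89. Of these 206035_at was listed at 16.6, 16.6 and 11.8 at 4 h, against 1.1, 0.6 and 0.5 in untreated cells, and at 1.5, 6.4 and 0.4 at 24 h. Its 4 h arrays lay above all others, but its level was about that of the pseudocount, where no detection call was at hand, and its change did not pass (limma adjusted p = 0.0855). The probe set 206036_s_at measured 17.4 ± 11 at 24 h, 29.4 ± 5.6 at 4 h and 15.5 ± 1.1 untreated (adjusted p = 0.446 for 4 h against untreated). For NFKB2, 209636_at had a log2 change of 0.48 at 4 h (adjusted p = 0.278) and 0.57 at 24 h (adjusted p = 0.148), and 211524_at lay under 16 on every array. The second probe set of NFKBIA, 231699_at, averaged 18.5 at 24 h, 11.9 at 4 h and 4.53 untreated, too dim to set beside the first. That of NFKBIZ, 223217_s_at, averaged 41.5 at 24 h, 50.1 at 4 h and 36 untreated. Its 4 h arrays overlapped both other groups, unlike those of the probe set that represents the gene. Its log2 change was 0.35 at 4 h and 0.16 at 24 h, where the representing probe set had -0.14. Neither passed (limma adjusted p = 0.529 and 0.787).

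**Figure D4:**
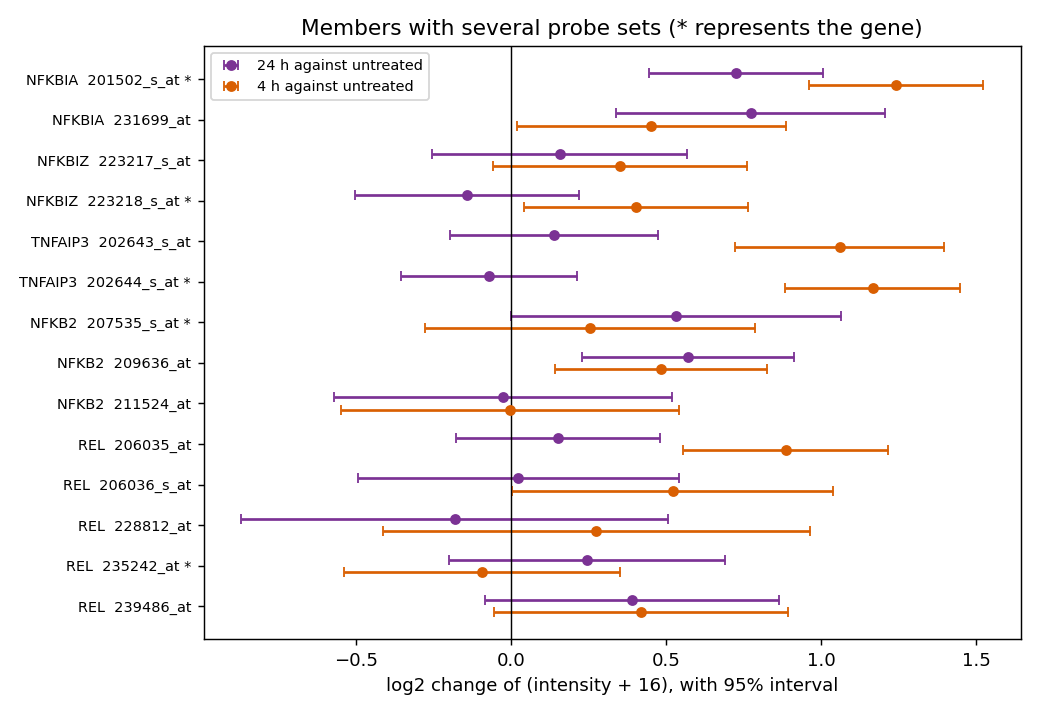
Log2 change of (intensity + 16) with its 95% interval (horizontal axis) for each probe set of the 5 members that have several, at 24 h and at 4 h against untreated cells; an asterisk marks the probe set that represents the gene. Both probe sets of TNFAIP3 lie above 1 at 4 h, and the asterisked probe set of REL lies below 0 there while its other 4 lie above 0.

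The rest of the pathway was described through 5 further lists. Among 12 other subunit, IkB and kinase complex genes, limma called 0 in any comparison. At an unadjusted p under 0.05 there were 2 at 4 h, 1 at 24 h and 1 between the time points. The shares of all genes at that threshold were 12.3%, 15.8% and 11.4%. The median log2 change of the 12 genes at 4 h was -0.06 beside 0.01 for all genes. TBK1, a kinase of the IkB kinase family, measured 181 ± 11 at 24 h, 214 ± 48 at 4 h and 158 ± 19 untreated (adjusted p = 0.402 at 4 h). NKRF, which encodes a repressor of NF-kB target promoters, measured 219 ± 19 at 24 h, 255 ± 21 at 4 h and 179 ± 16 untreated (adjusted p = 0.169 at 4 h). NKIRAS2, whose product binds IkB proteins, measured 130 ± 12 at 24 h, 183 ± 51 at 4 h and 191 ± 4 untreated (adjusted p = 0.209 at 24 h). CHUK, the IKK-alpha kinase gene, measured 237 ± 10 at 24 h, 276 ± 15 at 4 h and 283 ± 12 untreated (adjusted p = 0.317 at 24 h). None of these passed. When replicate 2 of the 4 h group was left out, the log2 changes at 4 h were 0.30 for TBK1, 0.53 for NKRF, -0.26 for NKIRAS2 and -0.04 for CHUK. Over the 18 alternatives NKRF was called at 4 h in 1 (limma adjusted p = 0.048).

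Among 40 adaptors, kinases and ubiquitin enzymes limma again called 0 in each comparison, with a median log2 change of 0.13 at 4 h. At an unadjusted p under 0.05 there were 7 higher and none lower at 4 h, against 12.3% of all genes either way. At 24 h there were 7 higher and 1 lower, against 15.8%. Between the time points there were 2 higher and 2 lower, against 11.4%. IRAK2, a kinase below the IL1 and Toll-like receptors, measured 252 ± 30 at 24 h, 307 ± 57 at 4 h and 180 ± 26 untreated (adjusted p = 0.124 at 4 h). BIRC2, which encodes a ubiquitin ligase that keeps NIK low, measured 1039 ± 24 at 24 h, 1466 ± 258 at 4 h and 910 ± 104 untreated (adjusted p = 0.119 at 4 h). In both, the 4 h arrays lay above the untreated ones. TNFAIP8 measured 102 ± 5 at 24 h, 139 ± 9 at 4 h and 153 ± 11 untreated (adjusted p = 0.072 at 24 h). ITCH, a ubiquitin ligase gene, measured 254 ± 10 at 24 h, 197 ± 13 at 4 h and 166 ± 11 untreated, with no overlap between groups (adjusted p = 0.0564 at 24 h). With replicate 2 of the 4 h group left out, ITCH was called at 24 h (adjusted p = 0.0463). The log2 changes at 4 h were then 0.77 for IRAK2, 0.77 for BIRC2, -0.17 for TNFAIP8 and 0.27 for ITCH, none of them called. Over the 18 alternatives IRAK2 and BIRC2 were each called at 4 h in 2, and TNFAIP8 at 24 h in 3. ITCH was called at 24 h in 4, while its log2 change there ran from 0.139 to 0.612 (limma adjusted p up to 0.634).

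Of 23 receptors limma called 0 in any comparison with all arrays. At an unadjusted p under 0.05 there were 1 higher and 2 lower at 4 h, and the same counts at 24 h. Between the time points there were 1 higher and 4 lower. The shares of all genes at that threshold were 12.3%, 15.8% and 11.4%. TNFRSF1A, the main receptor for TNF, measured 495 ± 95 at 24 h, 470 ± 132 at 4 h and 803 ± 92 untreated, with no overlap between treated and untreated arrays (limma adjusted p = 0.16 at 24 h and 0.2 at 4 h). TNFRSF21, a death receptor, measured 328 ± 15 at 24 h, 473 ± 30 at 4 h and 515 ± 44 untreated (adjusted p = 0.0541 at 24 h). It was called at 24 h without replicate 2 of the 4 h group (adjusted p = 0.0471), in 5 of 18 alternatives in all, and in 2 of 18 between the time points. TNFRSF1A was called at 24 h in 1 of 18 (adjusted p = 0.0483). IL1RAP, the shared chain of the IL1 receptor, measured 47.7 ± 11.3 at 24 h, 108 ± 34 at 4 h and 69.4 ± 25.3 untreated (adjusted p = 0.219 for 24 h against 4 h). CD40, another receptor of the TNF family, measured 45.1 ± 5.2 at 24 h, 66.7 ± 13.3 at 4 h and 46.7 ± 12.5 untreated (adjusted p = 0.376 at 4 h). When replicate 2 of the 4 h group was left out, the log2 changes at 4 h were -0.98 for TNFRSF1A, -0.13 for TNFRSF21, 0.51 for IL1RAP and 0.46 for CD40.

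Of 13 measured ligands, 10 had a mean under 16. IL1B, which encodes the cytokine interleukin 1 beta, was bright: it measured 937 ± 21 at 24 h, 1873 ± 233 at 4 h and 1729 ± 108 untreated. It fell at 24 h against untreated cells by a log2 change of -0.87 ± 0.13 (limma adjusted p = 0.0332) and was lower at 24 h than at 4 h by -0.98 ± 0.13 (adjusted p = 0.0266), while its 4 h change of 0.11 did not pass (adjusted p = 0.794). Both calls held without replicate 2 of the 4 h group (adjusted p = 0.0193 and 0.0423). Over the 18 alternatives the first was lost in 8 (adjusted p up to 0.169) and the second in 11 (adjusted p up to 0.129). No ligand gene was called at 4 h, where limma gave 1 of 13 an unadjusted p under 0.05, against 12.3% of all genes. IL1A measured 49.4 ± 13.6 at 24 h, 77.0 ± 11 at 4 h and 40.5 ± 7.5 untreated (adjusted p = 0.159 at 4 h, and 0.113 without replicate 2 of that group). IL17A lay under 16 in the mean of every group, at 11.3 at 24 h, 10.1 at 4 h and 3.07 untreated (adjusted p = 0.289 at 24 h). At 4 h and without replicate 2 the log2 changes of IL1B and IL17A were 0.22 and 0.32, neither called.

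Of 39 target genes outside the pathway, limma called 2 higher and none lower at 4 h, against 0.238% and 0.0152% of all genes. At an unadjusted p under 0.05 there were 11 higher and 3 lower, against 12.3% of all genes either way. The 2 called were the chemokine gene CXCL8 (106 ± 14 at 24 h, 657 ± 42 at 4 h and 126 ± 23 untreated, adjusted p = 0.00107 at 4 h) and BCL2A1, a survival gene of the BCL2 family (66.9 ± 4.7 at 24 h, 142 ± 6 at 4 h and 76.8 ± 10.1 untreated, adjusted p = 0.0437). None of the 39 was called at 24 h by limma with all arrays. There 5 were higher and 4 lower at an unadjusted p under 0.05, against 15.8% of all genes either way. Against 4 h, 24 h was lower in CXCL8, BCL2A1 and PTGS2, the inducible cyclooxygenase gene (11.6 ± 6.3 at 24 h and 54.5 ± 2.9 at 4 h, adjusted p = 0.0293). That is 3 of 39 called lower, against 0.116% of all genes. With replicate 2 of the 4 h group left out, CXCL8 kept both calls (limma adjusted p = 0.00696 and 0.00621). BCL2A1 lost both (adjusted p = 0.0667 at 4 h and 0.106 between the time points), and PTGS2 lost its call (adjusted p = 0.106). Over the 18 alternatives BCL2A1 lost its 4 h call in 14 and its call between the time points in 12, PTGS2 lost its in 11, and CXCL8 lost none. SOD2, which encodes mitochondrial superoxide dismutase, measured 296 ± 90 at 24 h, 192 ± 70 at 4 h and 91.7 ± 14.3 untreated (adjusted p = 0.0502 at 24 h). KLF6, a zinc finger transcription factor gene, measured 786 ± 51 at 24 h, 1026 ± 217 at 4 h and 1291 ± 73 untreated (adjusted p = 0.0737 at 24 h). When replicate 2 of the 4 h group was left out, both were called at 24 h, SOD2 higher (adjusted p = 0.03) and KLF6 lower (adjusted p = 0.031). The log2 changes at 4 h were then 1.18 for SOD2, -0.51 for KLF6 and 1.04 for PTGS2, none called. Over the 18 alternatives SOD2 was called at 24 h in 6 and KLF6 in 5, and with the mean over probe sets the change of KLF6 was 0.048. PTGS2 was called at 4 h in 3 of 18.

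**Figure D5:**
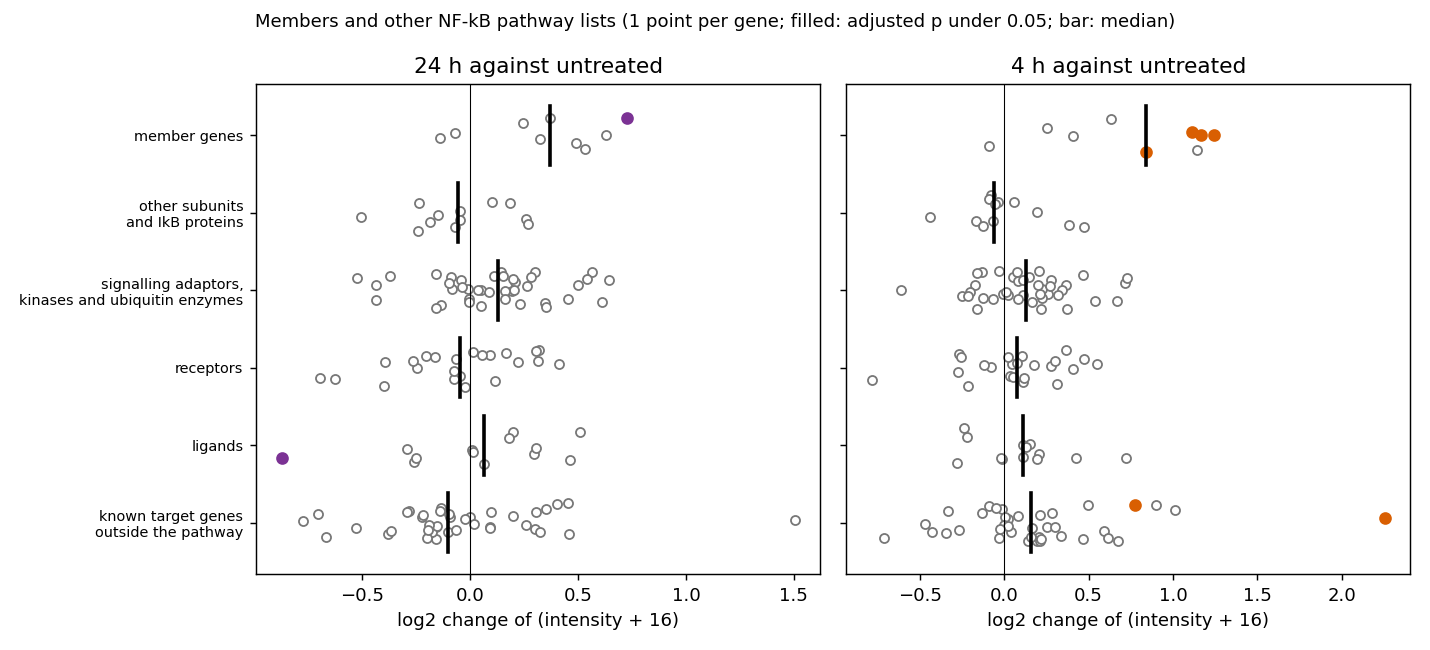
Log2 change of (intensity + 16) of each gene (points) in the member genes and 5 other NF-kB pathway lists, at 24 h (left) and at 4 h (right) against untreated cells; filled points passed an adjusted p of 0.05 and bars are list medians. The median of the members is 0.37 at 24 h and 0.84 at 4 h, and those of the other lists lie between -0.10 and 0.16.

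Across the 9 arrays some of the members had like patterns, described here over arrays that share their groups and with no test. NFKBIA, NFKBIE, MAP3K14 and NFKB1 were alike, with Pearson's r of 0.94 to 0.99 between each pair on the log2 scale. TNFAIP3 had r between 0.74 and 0.78 with these 4. RELB had r between 0.81 and 0.84 with the same 4 and with TNFAIP3, and REL had r between -0.49 and 0.10 with every other member. Among 8268 other genes with a mean of at least 64, those most like NFKBIA were MAP3K14 (0.988), SFSWAP (0.972), ZNF275 (0.959), NFKBIE (0.958) and BRD2 (0.957). Those most like TNFAIP3 were CXCL8 (0.974), FRMD6 (0.972), PAPOLG (0.965), C3orf52 (0.962) and HIC2 (0.961). Those most like NFKBIE were MAFF (0.988), IER3 (0.984), MAP3K14 (0.969), NFKB1 (0.968) and NFKBIA (0.958).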

How the data were processed

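RNA of 9 samples was hybridised to 1-colour Affymetrix arrays of 54675 probe sets. Titles gave the group and replicate number of each sample, and the design text names biological replicates. The deposited intensities are linear and reach 0, and on every array they average 100 once the top and bottom 2% are set aside. R 2.9.2 and RMA stand in the submitters' processing notes, with no role. The summarisation step is not known here, no detection calls were at hand, and precision is limited by the number of arrays. The test used log2(intensity + 16).

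Platform annotation named the probe sets and RefSeq updated the symbols: 41091 named 1 gene, 1801 several and 11721 none, and 62 controls were left out. The model was limma 3.58.1 in R 4.3.3 (lmFit, eBayes) with a mean for each group, two-sided, adjusted by Benjamini-Hochberg over 19775 genes, with no filter. The script was tested on simulated data, with changes added to genes above the 40th percentile of mean intensity. A log2 change of 0.5 was called in 7.46% to 11.9% of the changed genes. A change of 1 was called in 59.7% to 70.1%, and a change of 2 in 93.9% to 98.5%. A change that did not pass is therefore not shown to be absent. The members and lists were chosen with earlier results of these data known. Named genes were the members, list genes past the threshold, and in each comparison the 2 genes of each list with the smallest p. Alternatives varied the pseudocount, a filter, the probe set, the normalization, the samples fitted, a replicate block, an intensity trend and each array left out.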

Additional observations from a re-analysis of the deposited data

Results flagged for a closer look

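TNFAIP3 had different changes at 4 h and at 24 h: the 24 h change minus the 4 h change was -1.24 on the log2 scale (limma adjusted p = 0.00662), with 3 of 3 arrays at 24 h below all those at 4 h. The same test of the difference between the time points passed for 4 genes of the other lists. It gave -2.47 for CXCL8, -1.38 for PTGS2, -0.98 for IL1B and -0.93 for BCL2A1 (adjusted p = 0.000456, 0.0293, 0.0266 and 0.0266). Over the 18 alternatives this call was lost in 2 for TNFAIP3, 0 for CXCL8, 11 for PTGS2, 11 for IL1B and 12 for BCL2A1. Both changes are measured against the same untreated arrays. Groups of 3 arrays are too small to test whether a single array is outlying. Replicate 2 of the 4 h group was left out in some fits because of its place on the first principal component.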

How the results depend on the processing

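The count of called members, and of all called genes, was recomputed under 9 other settings. At 4 h against untreated, 4 members and 50 genes were called. A pseudocount of 1 gave 2 and 6, the 2 groups alone 0 and 2, and the replicate block 0 and 3. Called members numbered 6 with a pseudocount of 64, a filter on dim genes or an intensity trend, 5 with the mean over probe sets or quantile normalization, and 3 with median centring. Called genes numbered 273 with a pseudocount of 64, 170 with the filter and 250 with the trend. They numbered 26 with the mean over probe sets, 49 with quantile normalization and 17 with median centring. At 24 h against untreated, 1 member and 93 genes were called. This became 0 and 1 with a pseudocount of 1, 4 and 833 with one of 64, 3 and 581 with the filter, 2 and 49 with the mean over probe sets, 2 and 202 with the 2 groups alone, 0 and 1 with the replicate block, and 4 and 833 with the trend. Quantile normalization called 2 members and 110 genes there, and median centring 0 members and 78 genes. At 24 h against 4 h, 1 member and 28 genes were called. A pseudocount of 64 gave 3 and 244, the 2 groups alone 0 and 1, the replicate block 0 and 3, and the trend 2 and 213. Called genes numbered 9 with a pseudocount of 1, 123 with the filter and 15 with median centring. Among single probe sets of the members, a pseudocount of 1 called 0 at 4 h and 0 between the time points. One of 64 called 6 at 4 h, 4 at 24 h and 3 between the time points. Calls over all probe sets were not counted under these pseudocounts, so these counts have no share beside them. Over all genes, the pseudocount of 64 also raised the calls, to 273, 833 and 244. Where limma called 0 members, 4 to 7 had an unadjusted p under 0.05. With the replicate block these were 7 at 4 h, 4 at 24 h and 6 between the time points. The shares of all genes were 11.9%, 15.4% and 10.9%. With the 2 groups alone they were 7 at 4 h and 6 between the time points, beside 11.5% and 9.18% of all genes. With 1 array left out, called members numbered 0 to 3 at 4 h, 0 to 2 at 24 h and 1 to 1 between the time points, and called genes 2 to 16, 0 to 256 and 6 to 18. Under the replicate block NFKBIA, TNFAIP3 and MAP3K14 had an adjusted p of 0.0662 at 4 h. The deviations of same-numbered arrays from their group means had correlations of -0.05 to 0.06, beside -0.05 to 0.08 for differently numbered arrays. This was not tested, and it cannot settle whether the numbers pair the samples. Signs turned in a few uncalled changes. With the mean over probe sets REL was at 0.40 at 4 h and -0.28 between the time points, NFKBIZ, TNFAIP3 and KLF6 were at 0.008, 0.034 and 0.048 at 24 h, ITCH and KLF6 at -0.016 and 0.081 at 4 h, and IL17A at -0.098 between the time points. With 1 array left out, the change of REL at 4 h ran from -0.23 to 0.069, that of NFKBIZ at 24 h from -0.289 to 0.022, that of TNFAIP3 at 24 h from -0.12 to 0, and that of TNFRSF1A between the time points from -0.116 to 0.283. For NKIRAS2 and CHUK at 4 h it ran from -0.264 to 0.113 and from -0.074 to 0.001, for CD40 at 24 h from -0.103 to 0.136, and for IL17A between the time points from -0.146 to 0.227. The cause of these shifts was not tested. Dim probe sets, near the pseudocount, limit what can be said of REL and NFKBIZ.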
